A study of Mus musculus with 2 samples.

Results

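The IFI200 (PYHIN) genes of the mouse and their relative Aim2 were read here in microglia sorted from prefrontal cortex. The 9 members are Ifi203, Ifi204, Ifi206, Ifi207, Ifi209, Ifi211, Ifi213, Mndal and Aim2. They were taken by symbol, and each matched 1 row of the 32589 listed features. Another 4 symbols of the family, Ifi202b, Ifi205, Ifi208 and Ifi214, are also listed and are given beside them. They were selected on the ratio of corticosterone to vehicle in microglia of these same libraries, so every such ratio of a member is a description.

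PYHIN proteins carry a DNA-binding HIN domain, a pyrin domain that joins other pyrin domains, or both. Aim2 binds DNA in the cytosol and, through the adaptor Pycard, activates caspase-1, which matures interleukin-1β and cleaves the pore-forming protein gasdermin D. The other family genes encode mostly nuclear proteins, several with roles in DNA sensing and transcription, and many are induced by type I interferon in macrophages.

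Microglia are the macrophages that live in brain tissue, and they were sorted as CD45low CD11b+ cells after enzyme digestion of prefrontal cortex from C57BL/6 mice. One group of mice had received vehicle and the other corticosterone, the main glucocorticoid of rodents, by oral gavage, a treatment used as a model of depression with raised glucocorticoid. Each group is 1 single-cell library made with a Singleron GEXSCOPE kit. The dose, the duration, the sex and age of the mice and the number of mice pooled in a library are not given in the sources used here. The deposited matrices are named in other words than the group labels, and each was assigned through its sample record. With 1 library per group no difference below had a replicate check, no test was made and intervals cover counting error only. Treatment, library and any batch of preparation cannot be told apart.

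After filtering, 10500 vehicle cells held 49325067 UMIs (a UMI tags 1 captured transcript) and 17883 corticosterone cells held 85103539. The median cell had 3220.5 and 3961 UMIs. The libraries shared 104 cell barcodes before filtering and 101 among the kept cells. Microglia-like cells, named from markers such as P2ry12, Tmem119 and Sall1, were 7835 in vehicle and 15193 in corticosterone. None of the 10 microglia markers was at 0 UMIs in either. Each cluster of this class had only 0 or 1 markers at 2 times or more their level in other cells. These clusters were named by a second rule. It asked for at least 3 markers in 10% of cells, at a geometric mean of at least 0.5 times that of all cells. The class is thus not defined by enriched markers. Most vehicle cells of this class lay in 1 cluster (cluster 1, 7303 cells) and most corticosterone cells in 2 others (cluster 0, 9878 cells, and cluster 2, 4384 cells), so the class was filled by different clusters in the libraries. The sort was not pure: neutrophil-like, erythroid-like, monocyte-like and endothelial-like cells and border-associated macrophage-like cells, named from Mrc1, Pf4, Lyve1 and related markers, were present in both libraries. Family symbols were left out of clustering.

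The family lies in 1 block of chromosome 1 that spans 680.9 kb, from Aim2 at chr1:173350879-173466040 to Ifi205 at chr1:174011998-174031810 (GRCm38). It holds 13 protein-coding family genes, and the annotated span of Mndal, chr1:173849126-173942491, overlaps those of Ifi211 and Ifi203. The 5 protein-coding genes on each side, mostly olfactory receptors, were not part of the family's signal in microglia-like cells: 9 of 10 had 0 UMIs in both libraries and Olfr433 had 0 and 9.

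Near-identical copies may share reads, and how multi-mapping reads were counted is not given in the sources used here. Over the last 500 bases of the longest annotated transcript, the share of 50-base words also present in a transcript of another gene was 0% for Ifi203 and Ifi207, 1.77% for Aim2 and 2.22% for Ifi204. Over the whole transcript, Ifi204 shared 29.7% of its words with other family genes, 23.2% with Ifi211, and Ifi207 4.39%, so the low value of Ifi204 holds for its end only. The share was 11.5% for Ifi206, with Gm18752, and 12.6% for Ifi213, with Ifi208. It was 22.0% for Mndal, 63.4% for Ifi209, with Ifi214, and 77.4% for Ifi211, with Ifi205 and Mndal. Values of Ifi209, Ifi211 and Mndal as single genes are therefore uncertain, and the family sum is given as well.

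The sequences just before the start sites are shown because 6 of the 8 members with a promoter entry in RefSeq (GRCm38.p6) hold the same short motif there. The motif searched on both strands was GAAA followed by any 2 bases and GAAA again, the core of the interferon-stimulated response element that STAT and IRF complexes bind. It occurred in the 250 bases before the start of 978 of 32851 RefSeq promoters, or 2.98%. Counted by gene, as the members are, it was in 936 of 27025 genes, or 3.46%. The bases around the match are near-identical in Mndal and Ifi203, and in Ifi206 and Ifi213, so the 6 are not independent. The members with it were Ifi206, Ifi207, Ifi211, Ifi213, Mndal and Ifi203, for Ifi203 in 1 of its 2 start sites, and those without it were Aim2 and Ifi209. Ifi204 had no promoter entry and was not searched. The motif TTCNNNGAA, bound by STAT dimers, was in 7.02% of promoters, or 8.13% of genes, and in none of the 8 members. A match is a description of letters and does not show a bound site. Each line gives the 100 bases that end at the start site, 5′ to 3′ on the gene's strand, with the match to this motif in capitals.
Ifi207, chr1:173741810-173741909, minus strand: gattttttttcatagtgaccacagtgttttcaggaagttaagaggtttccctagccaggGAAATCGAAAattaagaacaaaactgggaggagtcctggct
Ifi206, chr1:173491319-173491418, minus strand: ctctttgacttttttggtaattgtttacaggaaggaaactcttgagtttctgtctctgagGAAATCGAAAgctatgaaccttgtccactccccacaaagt
Ifi211, chr1:173913047-173913146, minus strand: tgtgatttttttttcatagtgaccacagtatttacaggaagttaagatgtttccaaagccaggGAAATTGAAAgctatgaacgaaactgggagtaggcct
Ifi213, chr1:173599273-173599372, minus strand: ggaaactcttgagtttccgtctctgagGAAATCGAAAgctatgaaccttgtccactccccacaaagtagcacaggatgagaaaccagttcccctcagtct
Mndal, chr1:173880188-173880287, minus strand: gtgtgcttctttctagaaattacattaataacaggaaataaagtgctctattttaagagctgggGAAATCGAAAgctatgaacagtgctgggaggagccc
Ifi203, chr1:173942493-173942592, minus strand: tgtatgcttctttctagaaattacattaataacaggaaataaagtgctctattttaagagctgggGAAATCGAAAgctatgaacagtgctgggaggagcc
Ifi209, chr1:173630759-173630858, plus strand: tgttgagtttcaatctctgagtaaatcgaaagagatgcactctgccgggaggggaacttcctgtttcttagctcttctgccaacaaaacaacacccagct
Aim2, chr1:173420504-173420603, plus strand: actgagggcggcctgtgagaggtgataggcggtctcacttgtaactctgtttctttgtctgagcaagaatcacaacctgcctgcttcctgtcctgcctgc

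In Ifi206, Ifi207, Ifi211 and the Mndal and Ifi203 starts shown, the match began at most 41 bases before the start site. In Ifi213 it began 73 bases before it. Mndal has another start site, not shown, where a match on the opposite strand began 54 bases before it. Of the members searched, Mndal and Ifi203 carry the motif and were lower in corticosterone, and Ifi209 lacks an exact match and was higher. In the line of Ifi209 the stretch taaatcgaaa differs from the motif in its first base only. Ifi204, the member with the highest ratio below, is not covered. Whether the motif relates to the values below was not tested.

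Which members differed between vehicle and corticosterone in microglia-like cells was asked first. Of the 9 members, 6 were at least 2-fold higher in corticosterone, 2 were at least 2-fold lower, and Aim2 was near its vehicle level. Among all 9677 genes with a mean of at least 5 CPM (UMIs per 1e6 UMIs of the class and library), 2.24% were at least 2-fold higher and 2.05% at least 2-fold lower, with a median log2 ratio of -0.01. Because the members were picked with these values known, nothing is read from their excess over the background. Ifi213, Mndal and Ifi203 were under 5 CPM in the mean and are counted among the 9 all the same.

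Ifi204, which encodes p204, a mouse relative of human IFI16 with roles in DNA sensing and macrophage differentiation, had 308 UMIs in vehicle and 8538 in corticosterone. Its level was 9.64 CPM (95% interval 8.59 to 10.8) against 120.1 CPM (118 to 123), and these intervals lie far apart. The log2 ratio was 3.64 (3.48 to 3.81), a fold of 12.5, which placed Ifi204 6th from the highest of the 9677 genes. Ifi207, whose protein has been reported to bind and stabilise the adaptor STING, had 154 UMIs or 4.82 CPM (4.09 to 5.64) in vehicle. In corticosterone it had 3521 UMIs or 49.5 CPM (47.9 to 51.2), and the log2 ratio was 3.36 (3.13 to 3.60), a fold of 10.3. These are the 2 genes of the higher group whose transcript ends share the fewest 50-base words with other genes.

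Ifi206 was a low gene in vehicle, with 38 UMIs or 1.19 CPM (0.842 to 1.63), and had 724 UMIs or 10.2 CPM (9.46 to 10.95) in corticosterone. Its log2 ratio was 3.10 (2.63 to 3.61). Ifi211 was at nearly the same levels, with 42 UMIs or 1.31 CPM (0.947 to 1.78) against 721 UMIs or 10.1 CPM (9.42 to 10.9), and a log2 ratio of 2.95 (2.50 to 3.43). The intervals of these 2 ratios overlap each other and that of Ifi207, so no order among the 3 is given.

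Ifi209 had 285 UMIs or 8.92 CPM (7.91 to 10.0) in vehicle and 3295 UMIs or 46.4 CPM (44.8 to 48.0) in corticosterone, with a log2 ratio of 2.38 (2.20 to 2.56). It began near the vehicle level of Ifi204 and ended well below it. Ifi213 had 58 UMIs or 1.82 CPM (1.38 to 2.35) and 443 UMIs or 6.23 CPM (5.67 to 6.84), with a log2 ratio of 1.78 (1.38 to 2.20), the lowest of the 6 members that were higher. Its interval lies just below that of Ifi209. Monocyte markers, whose cells hold these members at high levels, summed to 19.1 CPM in vehicle and 27.7 in corticosterone microglia-like cells, with 5 of 8 markers higher and none at 0, and their part in these values was not tested. Ifi203 and Mndal, which monocyte-like cells also hold at high levels, were lower. Most macrophage and neutrophil markers were lower in this class too, so nothing about monocyte RNA is read from the direction of these 2 members.

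Aim2, the inflammasome sensor of the group, had 5589 UMIs in vehicle and 11510 in corticosterone. Scaled to the library these were 175 CPM (170.4 to 179.6) and 162 CPM (159 to 165), a log2 ratio of -0.11 (-0.16 to -0.07). Aim2 ranked 6087th of the 9677 genes, within the bulk of all genes. Under 2 other scalings of the libraries that moved the median of all genes to 0.08 (edgeR TMM) and 0.10 (DESeq2), its ratio was -0.02 and -0.00, and both intervals held 0. No direction is therefore given for Aim2 in microglia-like cells.

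Mndal, related to human MNDA, a nuclear protein of myeloid cells, had 57 UMIs or 1.78 CPM (1.35 to 2.31) in vehicle and 42 UMIs or 0.591 CPM (0.426 to 0.799) in corticosterone. Its log2 ratio was -1.59 (-2.20 to -0.99). Ifi203 had 41 UMIs or 1.28 CPM (0.921 to 1.74) and 28 UMIs or 0.394 CPM (0.262 to 0.569), a log2 ratio of -1.70 (-2.45 to -0.98). Both were the members with the fewest UMIs in corticosterone, and both stayed lower under TMM and DESeq2 scaling.

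Markers of border-associated macrophages moved the same way inside the microglia-like class. Of 10 such markers 9 were lower in corticosterone and Stab1, which microglia also hold at a high level, was higher. The summed level of the 9 was 86.3 CPM in vehicle and 39.4 CPM in corticosterone, their median log2 ratio was -1.23 (range -3.42 to -0.68), and none of the 10 was at 0. In vehicle these 9 stood at a median of 2.28% of their level in the macrophage-like cells, Ifi203 at 2.85% and Mndal at 3.25%. The corticosterone values were 0.413%, 0.685% and 1.01%. Every microglia-like cell with a UMI of the 9 markers was also left out. The log2 ratio was then -2.35 (-3.54 to -1.24) for Ifi203, on 22 vehicle and 11 corticosterone UMIs. That of Mndal was -1.26 (-1.998 to -0.515), on 32 and 34 UMIs. A cell with no sampled marker UMI may still hold macrophage RNA, so this removal cannot tell how much such RNA adds. The part of macrophage RNA in the lower values of Ifi203 and Mndal was not tested. In this class summed neutrophil markers were also lower, at 452 and 148 CPM, and erythroid markers at 43.4 and 22.0 CPM, while monocyte markers were higher. Vehicle neutrophil-like cells held Ifi203 and Mndal at 8.91 and 6.90 times their microglia-like levels. The part of RNA from these classes was not tested.

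**Figure D1:**
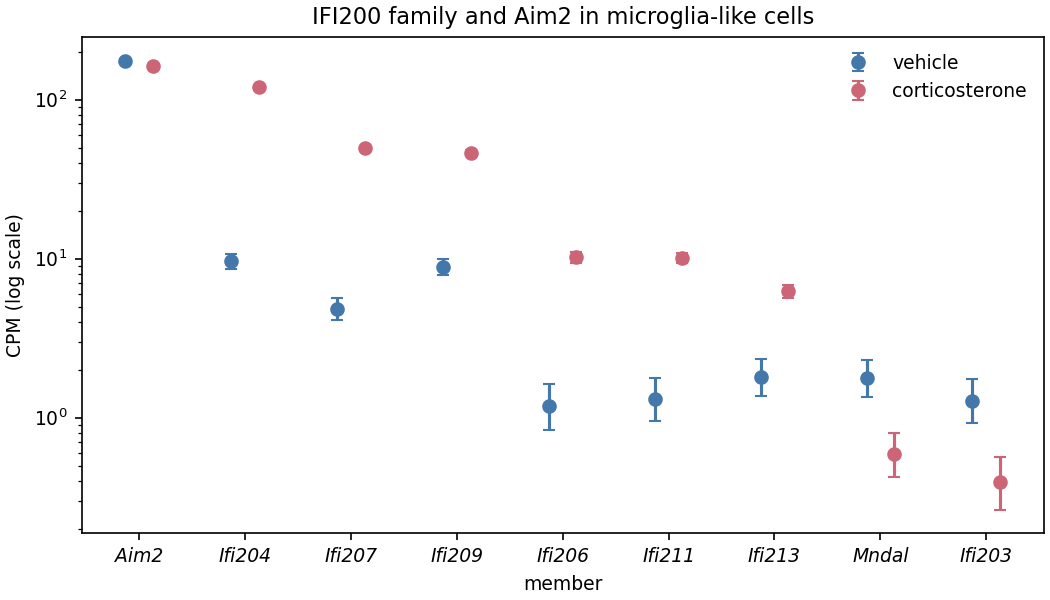
Level of each member in microglia-like cells, in CPM on a log scale, in the vehicle and corticosterone libraries; points are 1 library each and bars are exact Poisson 95% intervals. Ifi204 stands at 9.64 and 120.1 CPM, Aim2 at 175 and 162 CPM, and Mndal and Ifi203 are lower in corticosterone.

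Summed over the 9 members, microglia-like cells held 6572 family UMIs in vehicle and 28822 in corticosterone. This was 206 CPM (200.7 to 211) against 405 CPM (401 to 410.2), a log2 ratio of 0.98 (0.94 to 1.02), close to a doubling. Aim2 weighs on this sum. Without it the 8 remaining members had 983 and 17312 UMIs, 30.8 CPM (28.9 to 32.8) and 244 CPM (239.9 to 247), a log2 ratio of 2.98 (2.89 to 3.08). The sum over all 13 listed family symbols gave 0.99 (0.95 to 1.03), and this sum is the same however reads are split among the 13. It could still change if multi-mapping reads were dropped or went to genes outside the 13. Gm18752 shares words with the end of Ifi206, and Gm18445 and Ifi203-ps share words with the end of Ifi204.

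The make-up of the family's UMIs differed between the libraries more than its sum. Aim2 held 85.0% (84.2 to 85.9) of them in vehicle and 39.9% (39.4 to 40.5) in corticosterone. The share of Ifi204 was 4.69% (4.19 to 5.23) and 29.6% (29.1 to 30.2), which in corticosterone was still below that of Aim2. Ifi207 held 2.34% and 12.2%, and Ifi209 held 4.34% and 11.4%. Each of the other 5 members held less than 1% in vehicle, and Ifi206 and Ifi211 were at 2.51% and 2.50% in corticosterone. These are shares of counted molecules, not divided by length or corrected for capture.

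**Figure D2:**
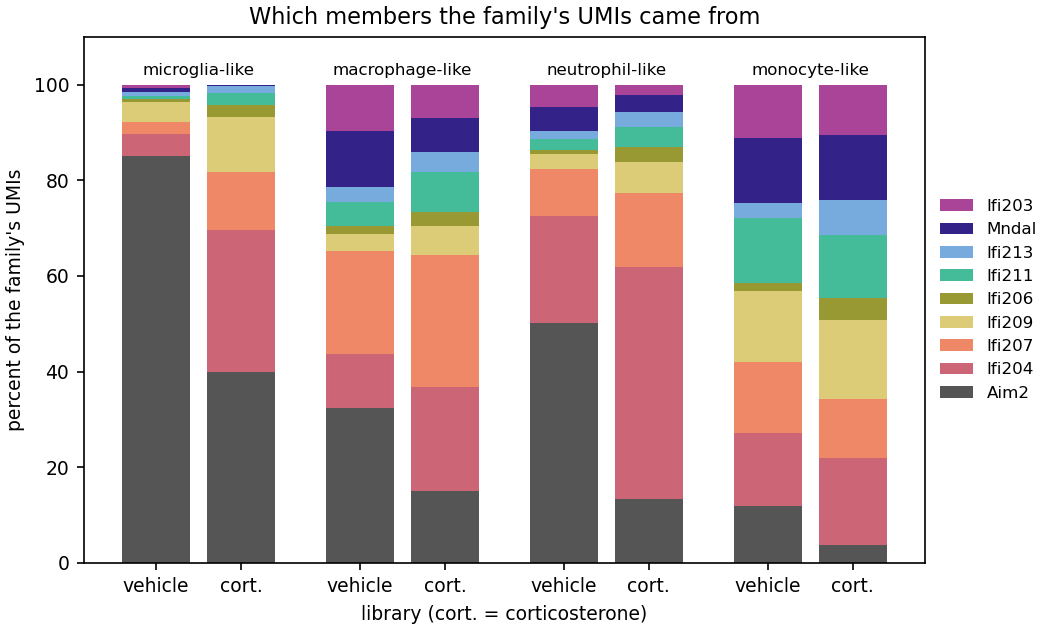
Percent of the family's UMIs that came from each member, in 4 cell classes by library; each bar is 1 library and sums to 100%. The Aim2 part of microglia-like cells is 85.0% in vehicle and 39.9% in corticosterone, and that of Ifi204 is 4.69% and 29.6%.

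The 4 family symbols outside the member list were scarce. Ifi208 had 11 and 204 UMIs in microglia-like cells, a log2 ratio of 3.06. Ifi205 had 2 and 96 UMIs, a ratio of 4.43 (2.54 to 7.50), and its transcript end shares 79.2% of its 50-base words with Ifi211 and Mndal. Ifi214 had 2 and 26 UMIs and Ifi202b had 2 and 0. Ifi208, Ifi205 and Ifi214, which share words with Ifi213, Ifi211 and Ifi209, were thus higher in corticosterone like those members.

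The spread of the family over single cells was read at an equal depth of 1000 randomly drawn UMIs per cell, called thinning, which left out 583 vehicle and 88 corticosterone microglia-like cells with fewer. A family UMI was found in 17.9% (17.0 to 18.8) of 7252 vehicle cells and in 27.5% (26.8 to 28.2) of 15105 corticosterone cells. Unthinned shares were 45.5% and 65.7%, at median depths of 3186 and 4001 UMIs. UMIs of exactly 2 members were found in 0.552% of vehicle and 3.59% of corticosterone cells, and UMIs of 3 or more members in 0.110% and 1.13%. The highest thinned count of 1 cell was 8 family UMIs in vehicle and 13 in corticosterone.

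Per member, the thinned share of cells with Ifi204 was 0.758% (0.572 to 0.986) in vehicle and 9.61% (9.14 to 10.1) in corticosterone. The share with Ifi207 was 0.414% and 4.05%, that with Ifi209 1.01% and 3.89%, and that with Aim2 15.7% (14.8 to 16.5) and 14.3% (13.8 to 14.9). Erythroid-like barcodes, which should lack these genes, were read in the same way, 127 in vehicle and 86 in corticosterone. They had Aim2 in 15.7% (9.89 to 23.3) and 12.8% (6.56 to 21.7) and Ifi204 in 0.787% (0.0199 to 4.31) and 9.30% (4.10 to 17.5). The microglia-like shares lay within the wide intervals of these, so they are not read as the share of microglia that express the gene. The erythroid-like barcodes also held 4 microglia markers (Sall1, P2ry12, Tmem119 and Siglech) at a median of 0.783 and 0.850 of the microglia-like level, and Aim2 at 0.842 and 0.803 of it.

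Members were found together in cells. Among the 100 corticosterone microglia-like cells with a thinned UMI of Ifi211, 58% also had Ifi204, 41% had Ifi207 and 40% had Ifi209. Among the 15005 cells without Ifi211 these shares were 9.28%, 3.80% and 3.65%. The transcript end of Ifi211 is shared with other copies, and the part of shared reads in these values was not tested. Ifi207 and Ifi204 have nearly private ends, and 30.4% of 611 cells with Ifi207 had Ifi204 against 8.73% of cells without it. Aim2 and Ifi204 were paired less in corticosterone, where 10.7% of 2164 cells with Aim2 and 9.43% of cells without it had Ifi204. Aim2 was in 20.5% of corticosterone cells with Ifi206 and 21.0% of those with Ifi211, against 14.3% of cells without each. It was in 0% of the few corticosterone cells with Ifi203 or Mndal. In vehicle Aim2 was in 25.5% of cells with Ifi204 against 15.6% without, and in 15.1% of cells with Ifi209 against 15.7% without. Vehicle cells with a member other than Aim2 were few, 55 with Ifi204, of which 9.09% had Ifi207, against 0.347% of cells without Ifi204.

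Because the family is known to respond to interferon, microglia-like cells were divided by their thinned UMIs of 12 core interferon-induced genes such as Ifit1, Isg15 and Rsad2, a list with no family member. Cells with 0 such UMIs were 91.4% of vehicle and 73.1% of corticosterone cells. Cells with 3 or more were 40 of 7252 and 658 of 15105. The family was higher where the core list was higher in both libraries, going from 0.199 family UMIs per thinned cell at 0 core UMIs to 3.36 at 6 or more in vehicle (14 cells), and from 0.284 to 3.52 in corticosterone (230 cells). Aim2 varied far less along this division: its level was 177 CPM (167 to 187) at 0 and 200.0 CPM (86.3 to 394) at 3 or more in vehicle, and 157 CPM (149 to 164) and 202 CPM (169 to 240) in corticosterone, where these intervals do not overlap and Aim2 was thus somewhat higher with more core UMIs.

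At equal core interferon counts the members differed from one another. Among vehicle cells with 0 core UMIs Ifi204 had 30 UMIs or 4.53 CPM (3.06 to 6.46). The corticosterone cells had 795 UMIs or 72.0 CPM (67.1 to 77.2), for a log2 ratio of 3.99 (3.47 to 4.57). Ifi207 had 18 and 283 UMIs there, a ratio of 3.24 (2.55 to 4.01), and Ifi209 had 50 and 269 UMIs, a ratio of 1.69 (1.25 to 2.16). Ifi204 and Ifi207 thus differed between the libraries about as much in cells without a core UMI as in the whole class. Ifi211 had 7 and 11 UMIs in these cells, 1.06 and 0.996 CPM, with a ratio of -0.08 (-1.58 to 1.52). Ifi213 had 15 and 13 UMIs, 2.26 and 1.18 CPM, with a ratio of -0.94 (-2.13 to 0.23), and Ifi206 had 6 and 34 UMIs with 1.77 (0.50 to 3.31). A higher level of Ifi211 or Ifi213 was thus not detectable in cells with no core UMI at this depth. A thinned cell with 0 core UMIs may still hold core transcripts that were not sampled.

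Where 3 or more core UMIs were found, the 8 members other than Aim2 summed to 1250 CPM (928 to 1648) in vehicle cells and to 1716 CPM (1617 to 1819) in corticosterone cells. That is a log2 ratio of 0.46 (0.05 to 0.90), against 2.52 (2.28 to 2.78) among cells with none. Ifi204 was at 500.0 and 687 CPM in these cells and Ifi211 at 175 and 157 CPM, and each interval of their ratios held 0. Leaving out all cells with 3 or more unthinned core UMIs gave a family log2 ratio of 0.49, with Ifi204 at 3.49, Ifi207 at 2.55, Ifi209 at 1.88, Ifi206 at 1.47, Ifi211 at 0.37 and Ifi213 at 0.17, Mndal at -1.90 and Ifi203 at -3.45, and 4 members at least 2-fold higher in place of 6. Cluster 5, led by Ifit2, Ifit3 and Cxcl10, held 44 vehicle and 682 corticosterone cells, and 621 of the 721 Ifi211 UMIs and 475 of the 724 Ifi206 UMIs of corticosterone microglia-like cells lay in it. The same cluster held 2668 of 8538 Ifi204 UMIs and 765 of 11510 Aim2 UMIs.

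**Figure D3:**
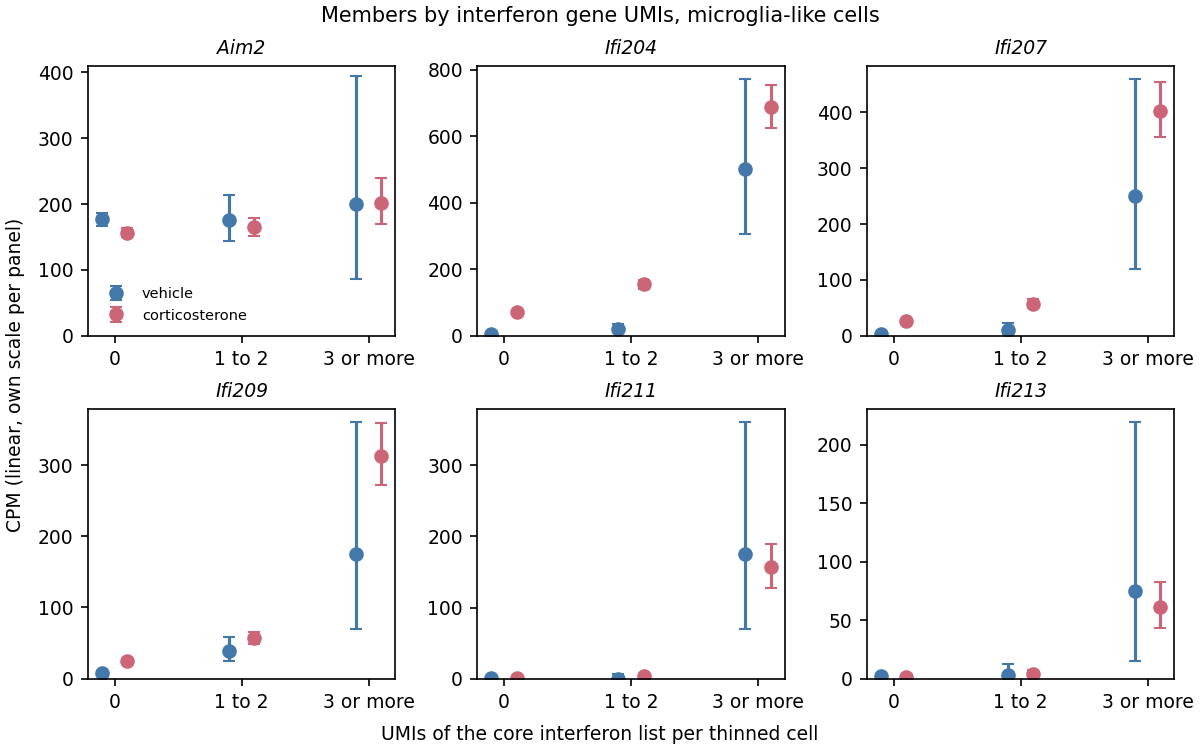
Level of 6 members (CPM, linear, own scale in each panel) in microglia-like cells thinned to 1000 UMIs and divided by their UMIs of 12 core interferon genes; points are 1 library each with exact Poisson 95% intervals. At 0 core UMIs Ifi204 is at 4.53 (vehicle) and 72.0 CPM (corticosterone), Ifi211 is at 1.06 and 0.996 CPM, and Aim2 lies between 157 and 202 CPM in every corticosterone division.

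Within single clusters fewer members could be compared, since some had no UMI in 1 of the libraries. Of the members found in both libraries, those at least 2-fold higher were 2 of 7 in cluster 0 and 3 of 8 in cluster 2. They were 1 of 8 in cluster 5 and 4 of 6 in cluster 1. The share of all genes past this fold was not computed for single clusters, so nothing is read from these counts. In cluster 1, the main vehicle cluster, Ifi204 was at 6.96 CPM in vehicle and 54.3 CPM in the 247 corticosterone cells, a log2 ratio of 2.96 (2.50 to 3.41), and Aim2 at 175 and 183 CPM. In cluster 0, the main corticosterone cluster, Ifi204 was at 25.4 CPM in 182 vehicle cells and 89.5 CPM in corticosterone, a ratio of 1.82 (1.12 to 2.63). The ratio of Ifi207 there was 0.76 (-0.05 to 1.71), and those of Ifi206, Ifi211 and Ifi213 were 0.26, -0.13 and -0.25 on 1 or 2 vehicle UMIs each, with intervals that held 0. In cluster 2 Ifi204 was at 12.9 CPM in 288 vehicle cells and 81.1 CPM in corticosterone, a ratio of 2.66 (1.61 to 3.97). In cluster 5 it was at 430 and 703 CPM, a ratio of 0.71 (0.36 to 1.08). Ifi204 was higher in corticosterone in each of these 4, by amounts that differed between clusters. The family ratio was above 0 at each depth: within microglia-like cells of 500 to 2000 UMIs it was 0.81 (0.63 to 0.99), and it was 0.87, 0.99 and 1.18 in cells of 2000 to 4000, 4000 to 8000 and 8000 or more UMIs.

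Across cell classes the family sum was ordered in much the same way in both libraries. In vehicle it was lowest in endothelial-like cells (178 CPM, 135 to 230.2), erythroid-like cells (183 CPM, 147 to 226) and microglia-like cells (206 CPM), whose intervals overlap. Neutrophil-like cells had 245 CPM (225 to 267), macrophage-like cells 466 CPM (453 to 479) and monocyte-like cells 919 CPM (786 to 1069). The neutrophil-like interval lies above that of microglia-like cells but overlaps those of endothelial-like and erythroid-like cells, and the macrophage-like and monocyte-like intervals are apart from all of these and from each other. In corticosterone the erythroid-like, microglia-like, neutrophil-like, macrophage-like and monocyte-like values were 311, 405, 507, 824 and 3059 CPM, and endothelial-like cells, 25 in number, had 448 CPM (346 to 571), which overlaps both microglia-like and neutrophil-like cells. The family was higher in corticosterone in all 6 named classes as drawn by cluster, and each counting interval of the ratio lay above 0. Endothelial-like and erythroid-like barcodes also held microglial RNA: the median of the same 4 markers as above, relative to microglia-like cells, was 0.878 in vehicle and 0.824 in corticosterone for the former, and 0.783 and 0.850 for the latter. The macrophage-like ratio was -0.27 with cells assigned singly.

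Ifi203 and Mndal had their highest levels in monocyte-like and macrophage-like cells among the named classes. In macrophage-like cells of vehicle Ifi203 was at 45.1 CPM (41.2 to 49.2) and Mndal at 54.9 CPM (50.6 to 59.5), 35.1 and 30.8 times their microglia-like levels. In corticosterone macrophage-like cells they were at 57.5 CPM (52.0 to 63.5) and 58.4 CPM (52.8 to 64.4), log2 ratios of 0.35 (0.16 to 0.55) and 0.09 (-0.10 to 0.27). Monocyte-like cells, 31 and 58 in number, held both genes at the highest levels of any class: Ifi203 at 103 CPM (62.2 to 161) and 324 CPM (275 to 378), and Mndal at 125 CPM (79.3 to 188) and 414 CPM (359 to 476). Erythroid-like barcodes had 0 UMIs of Ifi203 in both libraries, which allows up to 6.31 and 6.97 CPM, and 0 and 2 UMIs of Mndal. Aim2, in contrast, was at 150.3 and 124 CPM in macrophage-like, 109 and 113 CPM in monocyte-like, 123 and 68.0 CPM in neutrophil-like and 147 and 130.0 CPM in erythroid-like cells, under its microglia-like level in each. Those 4 microglia markers were at a median of 0.820 and 0.652 of their microglia-like level in macrophage-like cells, 0.559 and 0.354 in neutrophil-like cells, and 0.646 and 0.239 in monocyte-like cells. Aim2 stood at 0.860 and 0.766, 0.704 and 0.420, and 0.622 and 0.700 of it. Whether Aim2 UMIs outside the microglia-like class come from those cells was not tested.

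Macrophage-like cells, 1062 in vehicle and 798 in corticosterone, had 5157 and 5660 family UMIs, a log2 ratio of 0.82 (0.77 to 0.88). At least 2-fold higher were 6 of 9 members, against 2.88% of 9756 genes. The members were picked on their ratios in microglia, and macrophage-like cells held the 4 microglia markers at 0.820 and 0.652 of the microglia-like level. Nothing is therefore read from this count. Ifi204 was at 52.6 and 179 CPM, a ratio of 1.77 (1.62 to 1.91), Ifi209 at 16.5 and 51.1 CPM, 1.63 (1.37 to 1.90), and Ifi211 at 23.0 and 68.2 CPM, 1.57 (1.34 to 1.79). Ifi207, the member with the most UMIs after Aim2 in vehicle macrophage-like cells, was at 100.9 and 227 CPM, 1.17 (1.06 to 1.28). Ifi206 and Ifi213 had ratios of 1.55 and 1.30, and Aim2 -0.28 (-0.40 to -0.16). This outcome depended on how the class was drawn. At Leiden resolution 1.0 most of the class lay in different clusters in the libraries, 1 with 983 vehicle and 31 corticosterone cells and 1 with 68 and 738. When cells were assigned singly by their own markers in place of by cluster, 53 vehicle and 210 corticosterone cells remained, the family ratio was -0.27 (-0.44 to -0.09), none of the 9 members had an interval above 0, and Ifi203, Mndal and Aim2 had intervals below 0. Macrophage markers were higher by 0.93 on the log2 scale in corticosterone cells of the cluster, and microglia markers differed by -0.55.

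Neutrophil-like cells, 460 and 399 in number, had 558 and 1200 family UMIs, with a log2 ratio of 1.05 (0.90 to 1.19). At least 2-fold higher were 6 of 9 members, against 2.62% of 9558 genes. The members were picked on their ratios in microglia, and neutrophil-like cells held the 4 microglia markers at 0.559 and 0.354 of the microglia-like level. Nothing is therefore read from this count. Ifi204 had 125 and 581 UMIs, 55.0 and 245 CPM, a ratio of 2.16 (1.88 to 2.45). Ifi209, with 17 and 79 UMIs, had the same ratio of 2.16 (1.39 to 3.01), and the highest ratio was that of Ifi206, 2.87 (1.52 to 4.57), on 5 and 38 UMIs. Aim2 was lower, with 280 and 161 UMIs and a ratio of -0.86 (-1.15 to -0.57). The class holds 2 clusters filled unequally: the cluster with Camp and Ngp, of 264 vehicle and 126 corticosterone cells, had a family ratio of 0.34 (0.03 to 0.65), and the cluster with Cxcr2, of 196 and 273 cells, had 1.21 (1.04 to 1.38). Summed microglia markers were lower in corticosterone neutrophil-like cells by 0.94 on the log2 scale, beside the lower Aim2. The part of microglial RNA in that value and in those of the other members was not tested.

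Monocyte-like cells had 169 and 1484 family UMIs and the largest family ratio of the named classes, 1.73, with a fold of 3.33 (2.84 to 3.92). Every member but Aim2 had a ratio interval above 0 there. Their ratios ran from 1.47 (0.86 to 2.14) for Ifi207 to 3.14 (1.54 to 5.46) for Ifi206, which rests on 3 and 70 UMIs. The share of all genes with such an interval was not computed for this class, so nothing is read from how many members had it. Summed monocyte markers were also higher in corticosterone in this class, from 5647 to 25784 CPM, and microglia markers lower, from 24395 to 8248 CPM. The 2 libraries thus differed in the make-up of the class, and the part of this in the family values was not tested.

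An unnamed cluster led by the MHC class II genes H2-Eb1, H2-Aa and Cd74, with 180 and 88 cells, had a family level of 551 CPM (514 to 591) and 845 CPM (783 to 910), overlapping the macrophage-like level in corticosterone. Its Ifi203 level was 56.2 and 52.3 CPM. Another unnamed cluster of low UMI counts, 691 and 1180 cells, resembled microglia-like cells in its members: Aim2 made up 88.6% and 54.5% of its family UMIs and Ifi204 was at 8.17 and 125 CPM.

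**Figure D4:**
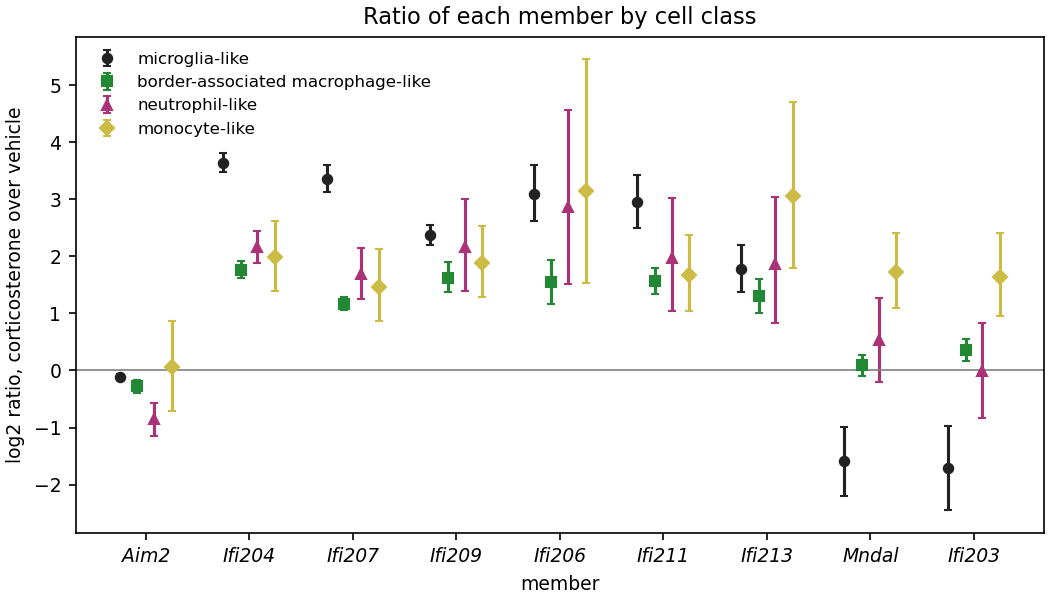
Log2 ratio of corticosterone over vehicle for each member in 4 cell classes; points compare 1 library with 1 library and bars are exact 95% counting intervals. Ifi204 is at 3.64 in microglia-like, 1.77 in border-associated macrophage-like and 2.16 in neutrophil-like cells, and Mndal and Ifi203 are at -1.59 and -1.70 in microglia-like cells.

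The genes around the family in its pathways were read from lists in microglia-like cells, over members with a mean of at least 5 CPM. Of 14 inflammasome genes 6 were higher and 8 lower, with a median log2 ratio of -0.11, and 1 was at least 2-fold higher. That gene was Il1b, the cytokine matured by caspase-1, at 27.9 and 290.0 CPM with a ratio of 3.38 (3.28 to 3.47). The partners of Aim2 stayed within a narrow range: Pycard, its adaptor, was at 364 and 330.3 CPM (-0.14), Casp1, the protease, at 70.7 and 91.1 CPM (0.37), and Gsdmd, the pore-forming substrate, at 129 and 119 CPM (-0.13). The lowest were Nlrp1a and Nlrp3, sensors of other inflammasomes, at -0.32 (-0.50 to -0.15) and -0.31 (-0.36 to -0.25), with Nlrp1a under 20 CPM.

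Of 14 cytosolic nucleic acid sensing genes 11 were higher and 3 lower, 2 by at least 2-fold, with a median of 0.47. The largest ratio was that of Zbp1, a sensor of Z-form nucleic acid, at 2.57 and 20.8 CPM and 3.02 (2.70 to 3.36). Dhx58, which encodes the RNA sensor LGP2, was at 15.4 and 40.8 CPM, a ratio of 1.41 (1.27 to 1.55), and the helicase Dhx9 was the lowest at -0.33. Tmem173, which encodes the DNA-sensing adaptor STING, was at 403 and 464 CPM, a ratio of 0.20 (0.17 to 0.23). Of 15 interferon receptor and signalling genes 14 were higher, 3 by at least 2-fold, with a median of 0.30, from Irf7, the transcription factor of the interferon loop, at 2.78 (2.58 to 2.99) to the receptor subunit Ifngr1 at -0.04. The core interferon genes measured, 11 of 12, were all at least 2-fold higher, with a median of 2.63, which lies between the ratios of Ifi209 and Ifi211. In a wider list of 34 interferon-inducible genes, which holds the core genes too, the ratio was above 0 in each, 24 of them by at least 2-fold, with a median of 1.47. The lowest was Gbp5, an interferon-induced GTPase, at 15.0 and 15.5 CPM with a ratio of 0.05 (-0.11 to 0.21), and the lowest with a mean of at least 20 CPM was its relative Gbp7 at 0.66. Genes of tissue dissociation and immediate early response, given as a check of handling, had a median of -0.26 over 15 genes, from Klf2 at -1.59 to Hspa1b, a heat shock gene at 3.63 and 6.40 CPM, at 0.82. Ier3, the highest with a mean of at least 20 CPM, was at 0.65.

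The genes most like the family sum in pattern were found among 6597 genes with a mean of at least 20 CPM. Over 8 points, the microglia-like, macrophage-like, neutrophil-like and erythroid-like classes in both libraries, Pearson's r of log2(CPM + 1) was highest for Clec2d at 0.977, a C-type lectin, followed by Anxa5 at 0.936, Fcer1g at 0.935, Cd63 at 0.932 and Apoe at 0.923. The points share libraries and RNA between classes and are not independent. Over single thinned microglia-like cells the highest were interferon-induced genes in both libraries: Ifit3 at 0.236, Irf7 at 0.184, Isg15 at 0.176, Oasl2 at 0.166 and Ifitm3 at 0.165 in vehicle, and Ifit2 at 0.404, Ifit3 at 0.388, Ccl12 at 0.375, Isg15 at 0.317 and Ifitm3 at 0.290 in corticosterone. Ifit3, Isg15 and Ifitm3 were in both lists of 5. These are weak correlations in sparse counts and are given as a description only.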

How the data were processed

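Single-cell libraries of sorted microglia, 1 per group, were read from the matrices that the authors deposited as raw UMI counts per gene and barcode, with no normalisation in the values. The submitters' processing notes name GRCm38 and bcl2fastq 2.19; the aligner, the counting program and its treatment of multi-mapping reads are not given in the sources used here. The members and the gene lists were chosen with earlier results of these data known. All family members were named, and from each list the extremes in log2 ratio among genes with a mean of at least 20 CPM; Tmem173, Pycard, Casp1 and Gsdmd were added for their role, and Zbp1, Nlrp1a, Gbp5 and Hspa1b as extremes below that level, after their values were seen.

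Cells were kept with at least 500 UMIs, 300 genes and at most 20% mitochondrial UMIs, which removed 55 and 230 barcodes. Scanpy 1.11.5 with leidenalg 0.10.2 clustered both libraries together (2000 variable genes without the family, 30 components, 15 neighbours, resolution 0.5), and clusters were named from fixed markers. Scrublet marked 0 and 1 cells, was taken not to have worked, and no cell was removed as a doublet. UMIs were summed by class and library and scaled to CPM. Ratios are corticosterone over vehicle, with exact Poisson, conditional or Clopper-Pearson 95% intervals, which cover counting error only. Shares of cells were taken after thinning to 1000 UMIs. The ratio and its interval were tested on simulated data. Where a count was 0, the limit is 3 UMIs. Alternatives used edgeR 4.0.16 and DESeq2 1.42.0 for scaling factors only, other resolutions, filters and depths, assignment per cell, and removal of interferon-high cells. Sequences are from RefSeq and transcripts from GENCODE.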

Additional observations from a re-analysis of the deposited data

Results flagged for a closer look

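Ifi203 was lower in corticosterone in microglia-like cells, with a log2 ratio of -1.70, and higher in border-associated macrophage-like cells, with 0.35, and in monocyte-like cells, with 1.65. Mndal was at -1.59 in microglia-like and 1.73 in monocyte-like cells. The macrophage-like value rests on the class drawn by cluster: with cells assigned singly it was -0.74 (-1.25 to -0.20), the direction of microglia-like cells. In the classes drawn by cluster the single library pair moved in opposite directions in the classes, and the difference between classes was not tested. The microglia-like values rest on 41 and 28 UMIs of Ifi203 and on 57 and 42 UMIs of Mndal, and the monocyte-like class has 31 vehicle and 58 corticosterone cells.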

How the results depend on the processing

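No paired analysis was possible because each group has 1 library. The family log2 ratio in microglia-like cells, 0.98, was 2.98 without Aim2, 1.09 with DESeq2 size factors and 1.07 with TMM factors. It was 0.87 at Leiden resolution 1.0, 0.77 with cells assigned singly, 0.92 in cells of 2000 to 6000 UMIs and 0.49 without interferon-high cells. At resolution 1.0 the class held 4268 vehicle and 15172 corticosterone cells, and a cluster of 3532 vehicle and 68 corticosterone cells was left unnamed. Over all kept cells, 0.73 became 1.44 without Aim2, 0.80 with DESeq2 factors, 0.79 with TMM factors and 0.31 without interferon-high cells. In macrophage-like cells 0.82 became 1.15 without Aim2, 0.42 in cells of 2000 to 6000 UMIs, 0.54 without interferon-high cells and, reversed, -0.27 with cells assigned singly, where 53 and 210 cells remained. The share of microglia-like cells with a family UMI, 17.9% in vehicle and 27.5% in corticosterone, was 2.70% and 15.7% without Aim2, 20.3% and 28.6% with cells assigned singly, 45.5% and 65.7% unthinned, and 31.5% and 45.0% thinned to 2000 UMIs. The corticosterone share was 23.7% without interferon-high cells and 28.6% without the highest doublet scores. The count of 6 members at least 2-fold higher was 5 with cells assigned singly and 4 without interferon-high cells, and 6 in the other alternatives run. Over 11 alternatives none of the 9 member ratios in microglia-like cells changed sign, but some intervals held 0. Without interferon-high cells Ifi211 was at 0.37 (-0.36 to 1.14) and Ifi213 at 0.17 (-0.37 to 0.72). With TMM or DESeq2 factors the interval of Aim2 held 0. Removal of cells with a macrophage marker UMI was added after seeing the data. The cause of these changes was not tested. Depth limits the vehicle values of Ifi206, Ifi203, Ifi211, Mndal and Ifi213, at 38 to 58 UMIs, and the corticosterone values of Ifi203 and Mndal, at 28 and 42.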
